A study of Homo sapiens with 17 samples.

Results

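The 10 genes described here belong to the N6-methyladenosine (m6A) pathway and were followed through an acRIP-seq experiment, in which poly(A) RNA was pulled down with an antibody against N4-acetylcytidine (ac4C) and sequenced. They were METTL3, METTL14, WTAP, KIAA1429 (now named VIRMA) and ZC3H13 of the methyltransferase complex, the demethylases FTO and ALKBH5, and the readers YTHDF1, YTHDF2 and YTHDF3. They were taken by gene symbol from the 23368 genes of the deposited count table, and all 10 were found and passed the filter on low counts in every fit. The list was chosen by gene symbol with earlier results of these data known, among them the high WT pull-down counts of ZC3H13 over input, and no threshold was set. Comparisons that use the WT IP libraries are therefore given as a description with no p-value, also where the call rule is counted, and so are the values of ZC3H13 that use WT input. The study asked whether TDP43, an RNA-binding protein encoded by TARDBP, takes part in mRNA acetylation by NAT10.

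The cells were 293T (HEK293T), a line derived from human embryonic kidney. One group of cells was labelled WT and the other siTARDBP, called siTDP43 here, for siRNA against TDP43. For each, RNA was sequenced before any pull-down (input), after pull-down with the ac4C antibody (IP) and after a mock pull-down with IgG. There were 3 libraries in each of the 6 groups except WT IgG, which had 2. The labels name no control siRNA for the WT cells, so effects of transfection, of the knockdown and of when each set was prepared cannot be told apart. Nothing in the labels says that libraries of a group came from separate cultures, so p-values measure the spread between these libraries, which may be technical.

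m6A is the most common internal modification of mRNA in mammals. METTL3 carries the catalytic site and METTL14 binds RNA beside it, while WTAP, KIAA1429 and ZC3H13 hold the complex in the nucleus and direct it to its sites. FTO and ALKBH5 remove the mark, and the YTHDF proteins bind it in the cytoplasm and act on the decay and translation of the mRNA. ac4C is a separate mark on cytidine, so the pull-down values below concern the acetylation assay of the mRNAs of these genes and not their m6A.

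The knockdown used a pair of siRNAs, shown because they define the siTDP43 groups. The capitals mark the 19 bases that match TARDBP, and the lower-case letters the overhang.
siTDP43-1: GGCUGGUAGAAGGAAUUCUtt
siTDP43-2: GUCACAGCGACAUAUGAUAtt
Each matched 1 site in the coding exons of TARDBP on the plus strand of hg19, chr1:11073948-11073966 and chr1:11078873-11078891. TARDBP was at 150, 157 and 151 CPM in the WT inputs and at 98.6, 102 and 106 CPM in the siTDP43 inputs, where CPM is the count per 1000000 counts of the library, after TMM scaling over the 17 libraries. The groups did not overlap, and TARDBP in the siTDP43 input was at 67.2% of the WT level (edgeR quasi-likelihood test, adjusted p = 6.55e-13).

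Total counts ran from 3013989 to 36583436 per library and were lowest in siTDP43 IgG, with 3013989 to 3436811, against 9022250 to 9466855 in WT IgG. Of 5 genes known from HEK293 cells, 2 (NEFL and NEFM) exceeded 1 CPM in WT input and 3 (also INA) in siTDP43 input, while PAX2 and LHX1 were below 1 CPM in both. The 5 genes summed to 128 to 139 CPM in WT input and 223 to 235 CPM in siTDP43 input. Of 8 markers of other cell types, 2 exceeded 1 CPM in WT input, EPCAM at 3.07 and DES at 3.09 CPM. In siTDP43 input 1 did, EPCAM at 4.59 CPM. Another 3 (PTPRC, PECAM1 and KRT5) had no count in any input library. The 8 summed to 5.82 to 7.78 CPM in WT input and 4.41 to 5.82 CPM in siTDP43 input. Each library is relative to its own total, and less RNA of a gene per cell and fewer cells that hold it cannot be told apart. Fits of 1 genotype were scaled on their own libraries, so a fold change can differ slightly from the ratio of the CPM values printed. Scaling by total counts in place of TMM shifted the median of all genes tested from -0.58 to -1.13 for siTDP43 IgG over input, from -0.09 to -0.43 for siTDP43 IP over input and from 0.33 to 0.54 for siTDP43 IP over IgG, on the log2 scale.

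In WT input, YTHDF2 had the highest level per exon length, at 59.5 ± 2.51 RPKM (CPM per kilobase of exon; SD, n = 3). METTL3 followed at 28.4 ± 0.246, WTAP at 18.8 ± 0.460 and METTL14 at 7.24 ± 0.483 RPKM, each with libraries apart from the next. ALKBH5 at 5.47 ± 0.421 and FTO at 5.45 ± 0.116 RPKM overlapped. YTHDF3 at 4.59 ± 0.407, YTHDF1 at 4.28 ± 0.726 and ZC3H13 at 3.81 ± 0.326 RPKM also overlapped with their neighbours, and KIAA1429 was lowest at 3.13 ± 0.165 RPKM. In siTDP43 input the first 4 kept this order, and YTHDF1 was lowest at 1.77 ± 0.260 RPKM. Below the first 4, YTHDF3 was at 16.3 ± 0.832, FTO at 10.8 ± 0.420, KIAA1429 at 10.8 ± 0.249, ALKBH5 at 2.85 ± 0.389 and ZC3H13 at 2.54 ± 0.421 RPKM. METTL14 and YTHDF3, FTO and KIAA1429, and ALKBH5 and ZC3H13 were the neighbours whose libraries overlapped there.

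**Figure D1:**
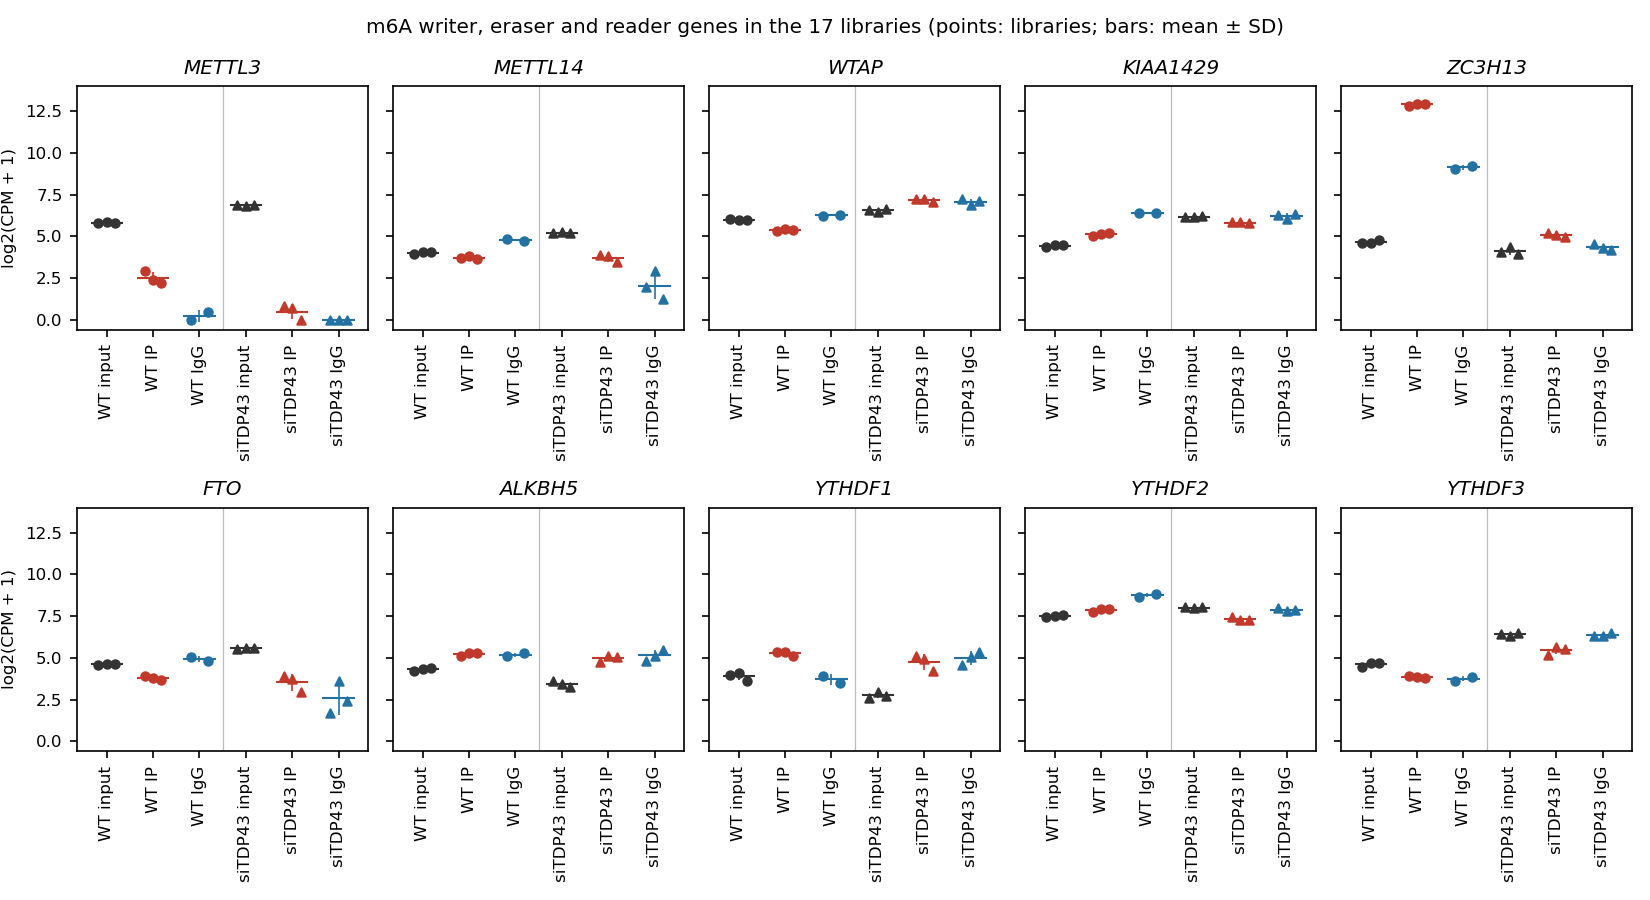
Level of each of the 10 genes as log2(CPM + 1) in the 17 libraries, circles for WT and triangles for siTDP43, with input in black, IP in red and IgG in blue; horizontal and vertical bars are the mean and SD of a group. ZC3H13 stands at 7214 to 7918 CPM in WT IP and at 30.6 to 35.1 CPM in siTDP43 IP, and METTL3 falls to 0 in all 3 siTDP43 IgG libraries.

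The first comparison asked how the input RNA of these genes differed between siTDP43 and WT cells. Of the 10 genes 7 rose and 3 fell in siTDP43 input, and for each of the 10 the libraries of the groups did not overlap. Over all 14036 genes tested, 38.6% were called higher and 40.6% lower at an adjusted p under 0.05, so most genes changed in this comparison and a call alone sets no gene apart. The median log2 difference of the 10 genes was 0.79, beside -0.05 over all genes tested.

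Of the methyltransferase genes, 4 rose and 1 fell. METTL3, the catalytic subunit (chromosome 14, 21966282 to 21979457), was at 55.5, 56.0 and 55.0 CPM in the WT inputs and at 118, 110.2 and 117.4 CPM in the siTDP43 inputs. Every siTDP43 library was thus above every WT library, and METTL3 rose 2.09-fold (log2 1.06 ± 0.050 SE, edgeR adjusted p = 1.47e-18). Its partner METTL14 (chromosome 4, 119606574 to 119632077) was at 14.1, 15.9 and 15.8 CPM in WT and at 36.4, 36.9 and 35.1 CPM in siTDP43, a rise of 2.37-fold (log2 1.25 ± 0.080, edgeR adjusted p = 4.15e-15). KIAA1429, the large scaffold of the complex (chromosome 8, 95500005 to 95565746), was at 19.5, 21.4 and 21.4 CPM in WT and at 69.7, 71.7 and 72.9 CPM in siTDP43. Its rise of 3.45-fold (log2 1.78 ± 0.064, edgeR adjusted p = 1.71e-21) was the largest of the 5 methyltransferase genes. WTAP, the adaptor that places the catalytic pair in nuclear speckles (chromosome 6, 160148152 to 160177351), was at 63.6, 61.1 and 60.9 CPM in WT and at 93.6, 86.8 and 99.2 CPM in siTDP43. It rose 1.51-fold (log2 0.60 ± 0.053, edgeR adjusted p = 1.10e-11). ZC3H13, a zinc finger protein that keeps the complex in the nucleus (chromosome 13, 46536314 to 46626894), was the 1 gene of the 5 that fell, from 23.0, 23.5 and 26.8 CPM in WT to 15.4, 19.3 and 14.1 CPM in siTDP43. It was at 66.7% of the WT level (log2 -0.58 ± 0.10). No p is given, as the WT input libraries were also the denominator of the pull-down that brought ZC3H13 onto the list.

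The exons of METTL3 in the count table overlapped those of TOX4, a protein-coding gene of the opposite strand, over 345 of their 1955 bases. Whether the counting used strand is not given in the sources used here, so reads of METTL3 and TOX4 in that stretch cannot be told apart and the METTL3 counts are uncertain to that extent. The exons of WTAP overlapped the opposite-strand gene SOD2 over 344 bases in GENCODE, and those of ZC3H13, ALKBH5 and YTHDF2 overlapped opposite-strand noncoding RNAs over 62, 357 and 540 bases. No other member had such an overlap.

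The demethylases went opposite ways. FTO (chromosome 16, 53737875 to 54148379), which also removes other methyl marks, was at 22.8, 23.5 and 23.8 CPM in the WT inputs and at 44.3, 47.9 and 46.3 CPM in the siTDP43 inputs. It rose 1.98-fold (log2 0.98 ± 0.069, edgeR adjusted p = 3.39e-14). ALKBH5, a nuclear m6A demethylase (chromosome 17, 18086867 to 18113267), was at 17.2, 19.1 and 20.03 CPM in WT and at 11.2, 9.58 and 8.58 CPM in siTDP43. It fell to 52.5% of the WT level (log2 -0.93 ± 0.11, edgeR adjusted p = 5.52e-09).

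Of the readers, YTHDF3 and YTHDF2 rose and YTHDF1 fell. YTHDF3 (chromosome 8, 64081121 to 64125346) was at 21.2, 24.7 and 25.0 CPM in WT and at 83.8, 79.7 and 88.3 CPM in siTDP43. At 3.56-fold (log2 1.83 ± 0.066, edgeR adjusted p = 1.57e-21) its rise was the largest of the 10 genes. YTHDF2 (chromosome 1, 29063133 to 29096287), the reader best known for mRNA decay, was at 174, 183 and 189 CPM in WT and at 258, 249 and 264 CPM in siTDP43, a rise of 1.42-fold (log2 0.50 ± 0.042, edgeR adjusted p = 2.68e-12). YTHDF1 (chromosome 20, 61826782 to 61847538), first linked to translation, was at 14.7, 15.8 and 11.3 CPM in WT and at 4.98, 6.65 and 5.60 CPM in siTDP43. Its fall to 41.2% of the WT level (log2 -1.28 ± 0.14, edgeR adjusted p = 9.97e-10) was the largest of the 10. The 3 readers are close paralogs, and how reads that fit more than 1 of them were handled beyond keeping unique alignments is not stated.

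The direction of the input difference went with base composition over the whole table. Across the 14036 genes tested, the Spearman correlation of exon GC content with the log2 difference was -0.32, a description over genes that share the same 6 libraries, and a line through them fell by 0.51 on the log2 scale per 10 percentage points of GC. YTHDF3 and KIAA1429, with the largest rises, had exon GC contents of 38.6% and 40.5%, and ALKBH5, which fell, had 58.6%. Other members did not follow that order: ZC3H13, at 43.1%, was lower in siTDP43, and METTL3, at 49.9%, rose. With a smooth GC trend removed from each library, the 10 log2 differences kept their sign and their call: YTHDF3 stood at 1.54, KIAA1429 at 1.49, ALKBH5 at -0.53, ZC3H13 at -0.83 and METTL3 at 1.05.

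**Figure D2:**
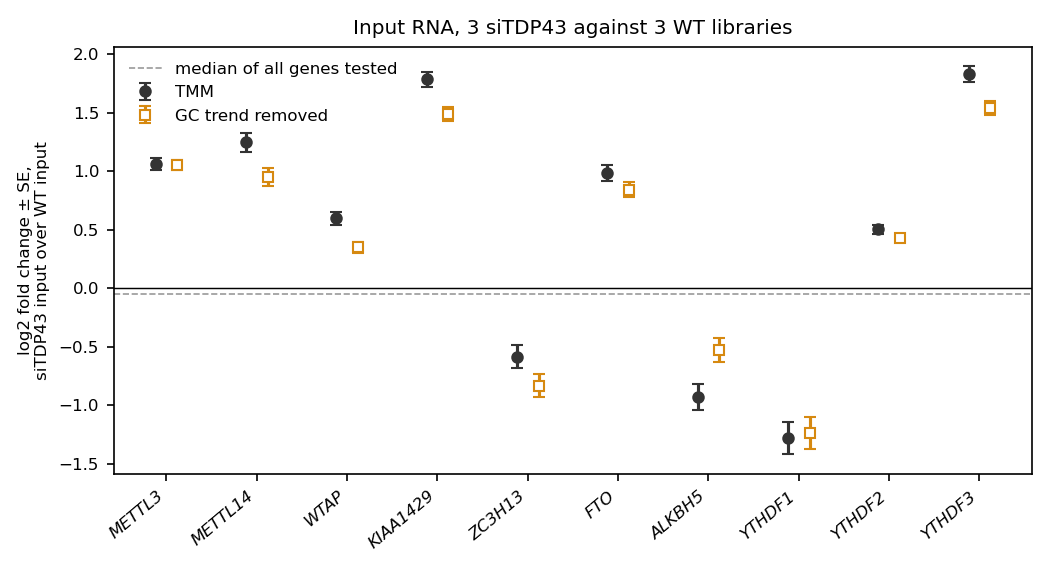
Log2 fold change of the 10 genes in siTDP43 input over WT input (3 libraries each), with TMM scaling as black circles and with the GC trend removed as open orange squares; bars are SE and the dashed line is the median of all genes tested. Above 0 lie 7 genes, up to 1.83 for YTHDF3, and ZC3H13, ALKBH5 and YTHDF1 lie below it under both settings.

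The second comparison concerned the WT pull-down. ZC3H13 stood far above the other members: it had 174566, 191127 and 178655 counts in the WT IP libraries, or 7214, 7798 and 7918 CPM, against 23.0 to 26.8 CPM in WT input and 521 and 603 CPM in WT IgG. These counts were 0.862%, 0.907% and 0.911% of all counts of their libraries, and ZC3H13 ranked 2 by count among all genes in each. The log2 difference was 8.29 ± 0.078 for IP over input, which placed it at rank 26 from the top of 14751 genes, and 3.75 ± 0.074 for IP over IgG, at rank 2414. The IgG pull-down held ZC3H13 at 23.4-fold its input level (log2 4.55 ± 0.071). ZC3H13 counts in IP were therefore 13.4-fold those in IgG on this scale, beside 314-fold those in input.

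The other writers showed no such level in WT IP. METTL3 was at 6.45, 4.28 and 3.59 CPM in IP, below every input library, and had 0 and 4 counts in the WT IgG libraries, or 0 and 0.412 CPM. Its log2 difference was -3.53 ± 0.15 for IP over input, and at 4 counts in 2 libraries its IgG level was too low to give a firm ratio to IP. METTL14 was at 12.03, 13.1 and 11.7 CPM in IP and at 27.6 and 25.7 CPM in IgG. WTAP was at 39.7, 41.5 and 40.2 CPM in IP and at 74.6 and 77.8 CPM in IgG. Both thus stood lower in IP than in IgG in every library. KIAA1429 was at 31.7, 34.7 and 36.1 CPM in IP, above input, but at 83.2 and 84.1 CPM in IgG.

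Of the erasers, FTO was at 14.3, 12.8 and 11.9 CPM in WT IP and at 32.6 and 27.0 CPM in IgG, and ALKBH5 at 32.8, 38.4 and 38.2 CPM in IP and at 32.9 and 37.4 CPM in IgG. FTO was lower in IP than in both controls, while the ALKBH5 libraries of IP and IgG overlapped. YTHDF1 was at 39.1, 40.5 and 34.2 CPM in IP and at 14.4 and 10.1 CPM in IgG, so that it was the 1 reader above both controls in every library. YTHDF2 was at 215, 243 and 245 CPM in IP and at 403 and 454 CPM in IgG. YTHDF3 was at 13.97, 13.6 and 13.03 CPM in IP and at 11.4 and 13.6 CPM in IgG, and these overlapped.

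At an adjusted p under 0.05 with a fold change above 2, WT IP exceeded input for 2 members, ZC3H13 and YTHDF1, and was lower for 1, METTL3. Over all 14751 genes tested, 30.2% were called higher and 27.3% lower. WT IP exceeded IgG for 3 members (METTL3, ZC3H13 and YTHDF1) and was lower for 3 (METTL14, KIAA1429 and FTO), beside 35.2% called higher and 17.8% lower of all genes. Nothing is read from these counts, since the list was chosen with WT pull-down values known. With total counts as the scale, ALKBH5 also exceeded input (log2 1.07, against 0.96 with TMM), and with the GC trend removed KIAA1429 did (1.34). Over IgG, removing the GC trend gave 2 members higher and 5 lower, since WTAP (-1.12) and YTHDF2 (-1.36) passed and YTHDF1 (0.97) did not, and limma gave 3 higher and 1 lower, without METTL14 (-0.92) and FTO (-0.91).

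The WT control IgG pull-down held its own differences from input. KIAA1429 rose 4.10-fold in IgG over input (log2 2.03 ± 0.090, edgeR adjusted p = 5.36e-16), ZC3H13 was 23.4-fold higher, given with no p, and YTHDF2 rose 2.40-fold (log2 1.26 ± 0.065, edgeR adjusted p = 1.01e-14). METTL3, with 4 counts over both IgG libraries against 1679 to 2201 counts in each input library, fell (edgeR adjusted p = 4.74e-16). Its log2 difference of -8.06 rests on those 4 counts and became -7.04 without WT IgG replicate 1, -13.53 without replicate 2 and -4.84 with limma. By the call rule these 3 higher and 1 lower stood beside 24.4% of all genes called higher and 36.6% lower. METTL14, WTAP, FTO, ALKBH5, YTHDF1 and YTHDF3 did not pass, with log2 differences between -0.89 and 0.93. With the GC trend removed METTL14, WTAP and ALKBH5 passed as well, at 1.49, 1.01 and 1.24, and KIAA1429 stood at 2.69 and ZC3H13 at 5.23. ALKBH5 also passed without WT IgG replicate 1 (1.01) and YTHDF3 without replicate 2 (-1.03).

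The third comparison concerned the pull-down in siTDP43 cells, in libraries other than those of the WT pull-down. ZC3H13 was at 35.1, 32.6 and 30.6 CPM in IP, against 15.4, 19.3 and 14.1 CPM in input and 22.0, 18.6 and 17.1 CPM in IgG. The IP libraries lay above both controls, and in these libraries ZC3H13 rose 2.25-fold over input (log2 1.17 ± 0.15, edgeR adjusted p = 3.82e-07). Over IgG its log2 difference was 0.70 ± 0.19 (edgeR adjusted p = 0.00201), short of 2-fold, and with the GC trend removed it was -0.12. The call over input was lost with total counts as the scale, at log2 0.83, and with limma on log2(FPKM + 1), at 0.64.

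METTL3 was at 0.743, 0.608 and 0 CPM in siTDP43 IP, from 10, 6 and 0 counts, and had no count in any of the 3 siTDP43 IgG libraries. It fell in IP against input (log2 -7.65 ± 0.25, edgeR adjusted p = 2.36e-16; -5.68 with limma). In IgG it was at least 102-fold lower than in input, taking a floor of 3 counts per library. Its call of IP over IgG (edgeR adjusted p = 0.0487) carries no fold, since the IP level lay below the IgG floor of 1.13 CPM. That call was lost in 13 of the alternative fits, among them the fit with the replicate number as a block.

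METTL14 and FTO fell in both siTDP43 pull-downs against input. METTL14 was at 13.8, 13.4 and 9.96 CPM in IP and at 2.94, 6.47 and 1.42 CPM in IgG, against 35.1 to 36.9 CPM in input. It fell in IP against input (log2 -1.38 ± 0.19, edgeR adjusted p = 6.40e-07) and in IgG against input (log2 -3.13 ± 0.29, edgeR adjusted p = 1.89e-09), and it was 3.37-fold higher in IP than in IgG (log2 1.75 ± 0.33, edgeR adjusted p = 6.56e-05). FTO was at 14.2, 12.4 and 6.73 CPM in IP and at 2.20, 11.3 and 4.27 CPM in IgG, against 44.3 to 47.9 CPM in input. It fell in IP against input (log2 -1.87 ± 0.22, edgeR adjusted p = 1.08e-07) and in IgG against input (log2 -2.77 ± 0.32, edgeR adjusted p = 5.05e-08). Its IP and IgG libraries overlapped, and without siTDP43 IgG replicate 2, the highest of the 3, its log2 difference of IP over IgG moved from 0.90 to 1.73 and passed, as it did without siTDP43 IP replicate 3 (1.12) and with total counts as the scale (1.10). The IgG values of both genes rest on 4 to 28 counts per library. Without siTDP43 IgG replicate 2 METTL14 moved to 2.45 for IP over IgG and -3.84 for IgG over input, and FTO to -3.61 for IgG over input. With the GC trend removed METTL14 no longer passed for IP against input (-0.94) or IP against IgG (0.81), and for IgG over input METTL14 was at -1.76 and FTO at -1.80.

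ALKBH5 and YTHDF1 rose in both siTDP43 pull-downs over input. ALKBH5 was at 26.4, 33.6 and 32.0 CPM in IP and at 27.2, 34.0 and 44.1 CPM in IgG, against 8.58 to 11.2 CPM in input. It rose 3.47-fold in IP over input (log2 1.80 ± 0.17, edgeR adjusted p = 3.31e-09) and 4.19-fold in IgG over input (log2 2.07 ± 0.19, edgeR adjusted p = 1.70e-09). YTHDF1 was at 33.3, 29.98 and 17.7 CPM in IP and at 22.8, 31.6 and 40.6 CPM in IgG, against 4.98 to 6.65 CPM in input. It rose 5.27-fold in IP over input (log2 2.40 ± 0.22, edgeR adjusted p = 1.50e-09) and 6.47-fold in IgG over input (log2 2.69 ± 0.24, edgeR adjusted p = 1.05e-09). For both genes the IP and IgG libraries overlapped, with log2 differences of IP over IgG of -0.27 ± 0.19 and -0.29 ± 0.23. With limma the rises were smaller, at 1.21 and 1.56 for IP over input and 1.24 and 1.65 for IgG over input, and with the GC trend removed YTHDF1 stood at 3.38 for IgG over input.

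The remaining members moved less. WTAP was at 149, 149 and 132 CPM in siTDP43 IP and at 148, 116.5 and 137 CPM in IgG, against 86.8 to 99.2 CPM in input, and passed in no siTDP43 pull-down comparison. KIAA1429 was at 55.9, 56.3 and 53.6 CPM in IP and at 77.8, 64.3 and 78.6 CPM in IgG, against 69.7 to 72.9 CPM in input. YTHDF2 was at 170, 151 and 153 CPM in IP and at 250, 223 and 232 CPM in IgG, against 249 to 264 CPM in input. Neither KIAA1429 nor YTHDF2 passed in any siTDP43 pull-down comparison, though with the GC trend removed both passed below IgG in IP, at -1.43 and -1.34. YTHDF3 was at 35.7, 48.4 and 45.1 CPM in IP and at 78.6, 77.7 and 88.9 CPM in IgG, and it fell in IP against IgG by 1.01 on the log2 scale (SE 0.13, edgeR adjusted p = 4.39e-07), at the edge of the 2-fold rule. It passed no longer with total counts as the scale (-0.79), with limma (-0.72), with all 17 libraries in 1 fit (-0.93), or without siTDP43 IP replicate 1 (-0.86) or siTDP43 IgG replicate 3 (-0.94), and with the GC trend removed it was -2.02. For IP over input YTHDF3 was at -0.81 and passed with total counts as the scale (-1.15) and with limma (-1.06).

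In siTDP43 cells 3 members were called higher (ZC3H13, ALKBH5 and YTHDF1) and 3 lower (METTL3, METTL14 and FTO) for IP over input, beside 26.8% and 25.4% of the 12746 genes tested. For IP over IgG 2 were higher (METTL3 and METTL14) and 1 lower (YTHDF3), beside 34.0% and 15.0%. For IgG over input 2 were higher (ALKBH5 and YTHDF1) and 3 lower (METTL3, METTL14 and FTO), beside 24.7% and 41.0%. The comparisons with input share the siTDP43 input libraries. With the GC trend removed 9 members were called for IgG over input, with WTAP at 1.99, KIAA1429 at 1.65, ZC3H13 at 1.71 and YTHDF3 at 1.64 among the rises, and WTAP also rose for IP over input, at 1.20. With total counts as the scale the IgG over input values of KIAA1429, ZC3H13 and YTHDF3 had the opposite sign, at -0.27, -0.08 and -0.36. Scaling by total counts changed the split of all genes from 3414 higher and 3239 lower to 2772 and 4323 for IP over input, and from 3145 and 5227 to 2367 and 6420 for IgG over input. It changed the members to 2 higher and 4 lower for IP over input and left 2 and 3 for IgG over input.

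**Figure D3:**
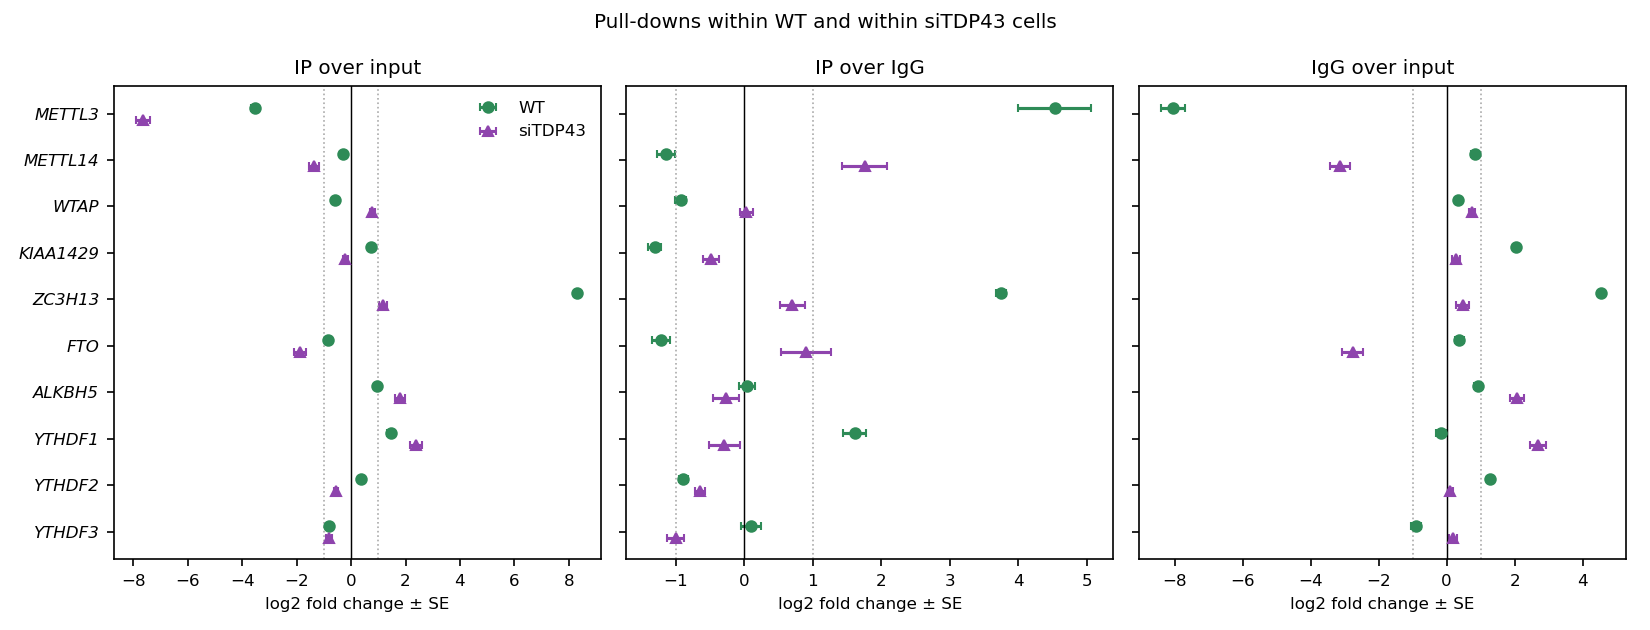
Log2 fold change with SE of the 10 genes for IP over input, IP over IgG and IgG over input, in WT (green circles) and in siTDP43 cells (purple triangles); dotted lines mark a 2-fold change, and METTL3 has no siTDP43 point where IgG is used because it had no count there. The METTL3 point of WT IgG rests on 4 counts. ZC3H13 is at 8.29 in WT and 1.17 in siTDP43 for IP over input, and at 4.55 in WT and 0.47 in siTDP43 for IgG over input.

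An mRNA was called ac4C(+) here when IP exceeded each control, input and IgG, by more than 2-fold at an edgeR adjusted p under 0.05. The 2-fold and adjusted p thresholds are also in the study's methods, which name DESeq2 in place of edgeR. Its results describe fold changes of FPKM + 1 with another test, and a further, higher fold over IgG. The genes called here are therefore not the study's own ac4C(+) list. The rule used here was met by 2 members in WT, ZC3H13 and YTHDF1, beside 15.6% of the 14751 genes tested. ZC3H13 was the 1 member that met it with the GC trend removed, as YTHDF1 was at 0.97 over IgG. In siTDP43 it was met by 0 members, beside 10.3% of the 12746 genes tested. With edgeR at an unadjusted p under 0.05 the number in siTDP43 was 0, and it was 0 with the DESeq2 Wald test and with limma on log2(FPKM + 1). In siTDP43 ZC3H13, ALKBH5 and YTHDF1 passed over input in the main fit, and none of them passed over IgG. Nothing is read from 2 members in WT against 0 in siTDP43, since the list was chosen with WT pull-down values known.

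The last comparison set the pull-down differences of siTDP43 cells against those of WT cells in 1 fit of 17 libraries. For IgG over input, which uses no IP library, 5 members were lower and 3 higher. ZC3H13 changed by -4.28 ± 0.15, given with no p. METTL14 changed by -4.17 ± 0.32 (edgeR adjusted p = 2.03e-14), FTO by -3.35 ± 0.34 (edgeR adjusted p = 3.86e-11), KIAA1429 by -1.96 ± 0.14 (edgeR adjusted p = 8.28e-15) and YTHDF2 by -1.36 ± 0.10 (edgeR adjusted p = 2.79e-14), on the log2 scale. The 3 higher were YTHDF1 by 2.65 ± 0.31 (edgeR adjusted p = 1.68e-09), ALKBH5 by 0.94 ± 0.23 (edgeR adjusted p = 4.10e-04) and YTHDF3 by 0.88 ± 0.19 (edgeR adjusted p = 8.12e-05). WTAP (0.22 ± 0.13, edgeR adjusted p = 0.131) and METTL3 (edgeR adjusted p = 0.139), the latter from 4 counts in 5 IgG libraries, did not pass. Without siTDP43 IgG replicate 2 METTL14 was at -4.86 and FTO at -4.17. Removing the GC trend put ZC3H13 at -3.44, METTL14 at -3.17, FTO at -2.69, KIAA1429 at -0.96, YTHDF2 at -0.78 and YTHDF3 at 1.94. With limma YTHDF1 was at 1.80, ALKBH5 (0.44) and YTHDF3 (0.38) lost the call and METTL3 passed (-1.09), and WTAP passed with DESeq2 (0.39), under a stricter filter, a mean of 50 counts (0.29), and without siTDP43 IgG replicate 2 (0.31). WTAP was at -0.10 with total counts as the scale and at 1.06 with the GC trend removed. Over all 15165 genes tested 27.0% were called higher and 37.4% lower. The median log2 change of the 10 genes was -1.66 and that of all genes -0.48. The 8 of 10 members called here, ZC3H13 included, stood beside 64.4% of all genes called in either direction. A call was thus the usual outcome, and nothing is read from the number of members. The siTDP43 IgG libraries were the shallowest.

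For IP over input the same contrast is a description. ZC3H13 changed by -7.26 ± 0.12, METTL3 by -4.27 ± 0.38, METTL14 by -1.21 ± 0.22, FTO by -1.17 ± 0.25, KIAA1429 by -1.08 ± 0.13 and YTHDF2 by -1.06 ± 0.096 on the log2 scale. WTAP changed by 1.23 ± 0.12, YTHDF1 by 0.81 ± 0.26 and ALKBH5 by 0.68 ± 0.19, while YTHDF3 changed by -0.17 ± 0.16. By the call rule 3 were higher and 6 lower, beside 31.5% and 36.3% of all genes. With total counts as the scale 1 was higher and 7 lower: YTHDF1 (0.50) and ALKBH5 (0.39) lost the call and YTHDF3 (-0.46) passed. With limma YTHDF1 (0.17) and ALKBH5 (0.25) lost it too, YTHDF3 (-0.51) passed and METTL3 was at -2.61. METTL3 was at -4.87 without siTDP43 IP replicate 1, and ALKBH5 at 1.26 with the GC trend removed.

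For IP over IgG the order of the members was different. METTL14 changed by 2.96 ± 0.34, FTO by 2.18 ± 0.37, WTAP by 1.01 ± 0.13, KIAA1429 by 0.88 ± 0.15 and YTHDF2 by 0.30 ± 0.11. ZC3H13 changed by -2.99 ± 0.18, YTHDF1 by -1.84 ± 0.30 and YTHDF3 by -1.05 ± 0.20. By the call rule 5 were higher and 3 lower, beside 34.9% and 25.9% of all genes. With the GC trend removed KIAA1429 turned to -0.10, WTAP was at 0.28 and YTHDF2 at 0.0062, none of them called, while METTL14 was at 1.97, ZC3H13 at -3.72 and YTHDF3 at -2.16. Without siTDP43 IgG replicate 2 METTL14 was at 3.65 and FTO at 3.01. YTHDF2 was not called with DESeq2 (0.076) or without WT IgG replicate 2 (0.21) either. ZC3H13, which changed by -2.99 over IgG, was lower in siTDP43 than in WT in every kind of library: input, IP and IgG.

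The exon sequences were compared because the pull-down differed so widely between ZC3H13 and METTL3. ZC3H13 exons held 35.4% A, more than 98.7% of the 23346 genes with sequence, and METTL3 exons held 26.6% A, near the median of 25.4%. The 60-base coding window of each gene with the most A is given on its own strand (hg19), with A in capitals.
ZC3H13, chr13:46577327-46577386, minus strand: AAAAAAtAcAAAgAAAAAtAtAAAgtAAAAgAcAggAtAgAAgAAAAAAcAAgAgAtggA
METTL3, chr14:21969980-21970039, minus strand: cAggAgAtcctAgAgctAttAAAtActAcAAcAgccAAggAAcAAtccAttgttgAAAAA
The window held 40 A in ZC3H13 and 26 in METTL3, and from 19 to 31 in the other 6 genes for which it was read. Over whole exons YTHDF2 reached 41 A in 60 bases, above 98.0% of genes of similar length, with a log2 difference of IP over input of 0.37 in WT. Across the 14751 genes tested the Spearman correlation of A content with WT IP over input was -0.29, a description over genes measured in the same libraries. That of GC content was 0.36 and that of exon length 0.20. The 590 genes between the 95th and 99th percentile of A content among those tested had a median log2 difference of -0.35, and the 148 above it of 1.65. In siTDP43 IP over input the same ranges had medians of -0.35 over 510 genes and 0.11 over 128 genes. The percentile of ZC3H13 above is among all genes with sequence, so which of these ranges holds it is not given here. The part of A content in the ZC3H13 result was not tested.

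**Figure D4:**
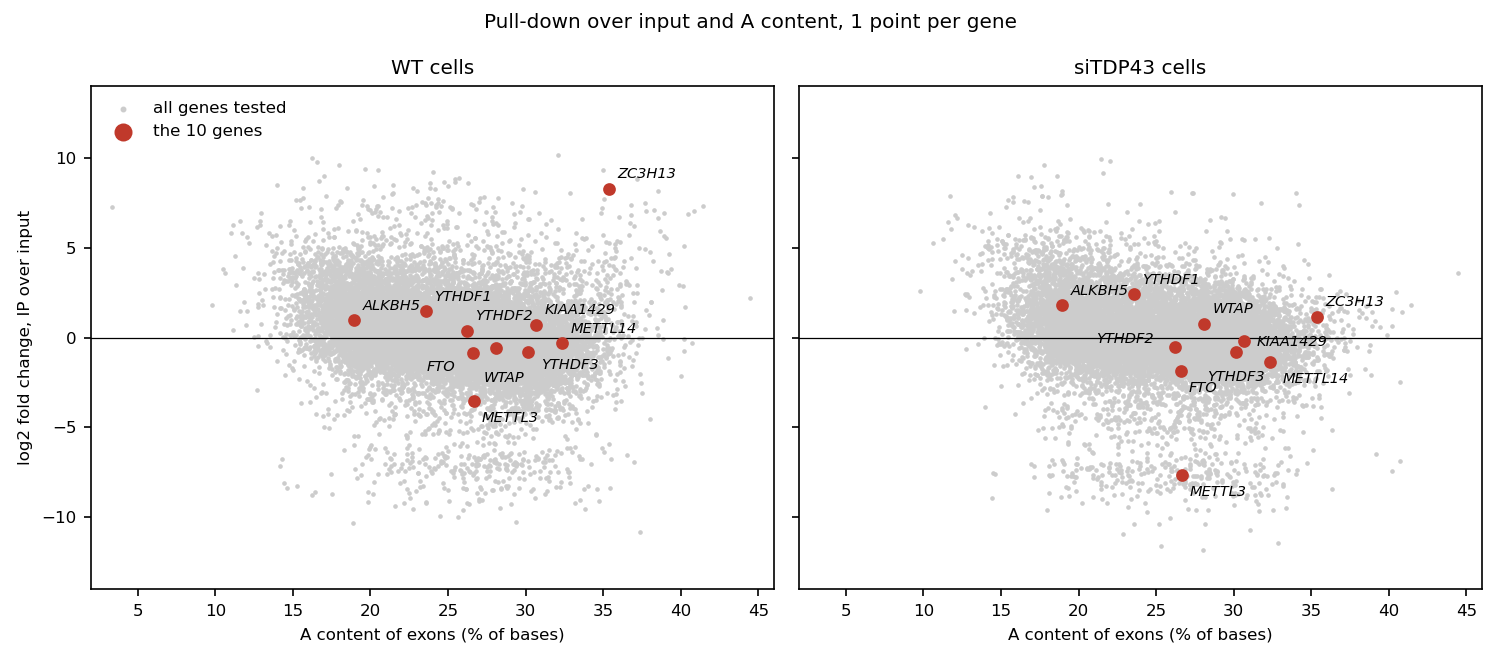
Log2 fold change of IP over input against the A content of the exons in WT (left) and siTDP43 cells (right), with all genes tested in grey and the 10 genes in red. ZC3H13, with 35.4% A, lies at 8.29 in WT and 1.17 in siTDP43, and METTL14, with 32.4% A, lies at -0.31 and -1.38.

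TCCCAGCT, a motif of the pull-down targets named by the study, was searched on the sense strand of the exons and was in none of the 10 genes. Of genes within 10% of the exon length of ZC3H13, 32.1% held it, and of those near METTL3, 13.7%. TGTGTG, a repeat of the kind that TDP43 is known to bind, was in the exons of 7 members: 4 times in ALKBH5, 3 times in FTO and KIAA1429, 2 times in YTHDF1 and once in WTAP, ZC3H13 and YTHDF2, with overlapping matches counted. It was in none of METTL3, METTL14 and YTHDF3. Of genes of similar length 73.9% held it for ALKBH5 and 90.1% for ZC3H13. Of these 7 members ZC3H13, ALKBH5 and YTHDF1 fell in siTDP43 input, and FTO, KIAA1429, WTAP and YTHDF2 rose. A window of ZC3H13 and 1 of ALKBH5 are shown as examples, with the motif in capitals.
ZC3H13, chr13:46537289-46537318, minus strand: tattacttaatcTGTGTGttagtgtcatca
ALKBH5, chr17:18112579-18112608, plus strand: aaattgttgtggTGTGTGgtagggtttttg
A match of letters is a description and no binding site, and these windows lie outside the coding sequence. UGUGCG, a TDP43-preferred motif named by the study, was not searched.

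Other genes of the pathway were taken from lists of 9 further writer genes, 10 further reader genes and 3 methyl donor genes, all 22 of which were tested. In siTDP43 input 14 rose and 4 fell, beside 38.6% and 40.6% of all genes. MAT2B and MAT2A, the regulatory and catalytic subunits of the enzyme that makes the methyl donor S-adenosylmethionine, rose 2.99-fold (edgeR adjusted p = 9.90e-24) and 2.79-fold (edgeR adjusted p = 1.02e-22). PRRC2A, a reader, fell from 65.4 to 15.8 CPM (edgeR adjusted p = 1.82e-22), and METTL5, which methylates 18S rRNA, from 210 to 163 CPM (edgeR adjusted p = 5.66e-09). The median log2 difference was 0.41 over the 22 genes and -0.05 over all genes tested.

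In the WT pull-down 7 of the 22 stood above input and 7 below, beside 30.2% and 27.3% of all genes. YTHDC1, the nuclear m6A reader, was at 167 ± 2.63 CPM in IP (SD, n = 3), 23.3 ± 1.65 CPM in input (n = 3) and 183 ± 0.0283 CPM in IgG (n = 2). RBM15B, which recruits the complex to RNA, was at 45.03 ± 2.85, 7.62 ± 0.486 and 50.05 ± 13.04 CPM. Both thus stood above input in IP and in IgG alike. METTL5 was 10.2-fold lower in IP and 10.7-fold lower in IgG than in input, and ZCCHC4, which methylates 28S rRNA, was 5.14-fold lower in IP. Over WT IgG 2 of the 22 were higher and 5 lower, beside 35.2% and 17.8%. MAT2A was at 16.7 CPM in IP and, from 4 counts over both libraries, at 0.200 CPM in IgG, PRRC2A was 2.20-fold higher, IGF2BP3 5.52-fold lower and YTHDC2 2.33-fold lower. In IgG over input 7 were higher and 6 lower, beside 24.4% and 36.6%, and MAT2A was among the latter, at 71.6 CPM in input.

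In the siTDP43 pull-down 3 of the 22 rose over input and 5 fell, beside 26.8% and 25.4% of all genes. PRRC2A rose 3.51-fold and YTHDC1 3.31-fold, while MAT2A fell 15.4-fold and METTL4 4.29-fold, with edgeR adjusted p from 1.61e-17 to 4.23e-07. Over IgG 3 rose and 2 fell, beside 34.0% and 15.0%, with METTL5 12.98-fold and CBLL1 (HAKAI, a subunit of the complex) 4.97-fold higher and PCIF1, the writer of the cap-adjacent m6Am mark, 3.61-fold and RBM15 2.83-fold lower. IgG over input gave 6 higher and 9 lower, beside 24.7% and 41.0%, with PRRC2A 4.65-fold and YTHDC1 4.04-fold higher and MAT2A 33.1-fold and METTL5 20.6-fold lower. Between genotypes 6 of the 22 were higher and 11 lower for IP over input, beside 31.5% and 36.3%. For IP over IgG 10 were higher and 6 lower, beside 34.9% and 25.9%, and for IgG over input 4 were higher and 15 lower, beside 27.0% and 37.4%. The largest of these changes were those of METTL5 (2.54) and its partner TRMT112 (1.84) upward and MAT2A (-1.99) and the reader IGF2BP2 (-1.87) downward for IP over input, METTL5 (3.69), IGF2BP3 (3.23) and PCIF1 (-2.53) for IP over IgG, and PCIF1 (2.38), IGF2BP3 (-3.73) and METTL4 (-2.69) for IgG over input, on the log2 scale. MAT2A was also called for both changes that use IgG, but its WT IgG level was at the floor, so no value is given. In siTDP43 IgG, the shallowest libraries, METTL5 was at 6.64 ± 5.77, CBLL1 at 3.91 ± 1.99 (SD, n = 3) and METTL4 at 2.10 CPM. Their values that use siTDP43 IgG are therefore imprecise. Exons of MAT2A, METTL5, RBM15B and TRMT112 overlap those of another gene in the table, so their counts are uncertain to that extent.

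The genes whose pattern over the 17 libraries was most like that of ZC3H13, among 10140 genes with a mean of at least 100 counts, were NEFM (Pearson r = 0.996 of log2(CPM + 1)), TCOF1 (0.995) and CDK5RAP2 (0.993). For METTL3 they were C1orf112 (0.993), TTI2 (0.988) and LOC220729 (0.987), and for KIAA1429 they were DYNC1I2 (0.957), RPL7L1 (0.955) and SLC25A13 (0.951). The 17 libraries share 6 groups, so these values follow the group means and carry no test.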

How the data were processed

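Poly(A) RNA of HEK293T cells was measured in 17 acRIP-seq libraries, grouped and numbered by their titles in the labels. Libraries were made by Smart-seq2, and the authors trimmed reads with Trim Galore 0.6.7, aligned uniquely with STAR 2.7.10a to hg19 and counted with featureCounts 2.0.2. The submitters' processing notes name another build, which the coordinates of the table do not match. The values deposited are raw counts for each gene; annotation release, strand and pair settings are not given in the sources used here. From 81.3 to 95.9% of counts from 1 to 20 were even, so each mate seems to be counted singly. PCR reads without molecular identifiers are not independent molecules, so floors cover counting error only. The members and the gene lists were chosen with earlier results of these data known.

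Tests on the counts used edgeR 4.0.16 under R 4.3.3 (quasi-likelihood F test, two-sided, TMM, filterByExpr minimum count 10) and Benjamini-Hochberg adjustment over all genes tested. The inputs (6 libraries), WT (8), siTDP43 (9) and all 17 libraries were fitted separately. Calls needed an adjusted p under 0.05, and within a genotype also a fold change above 2. Groups with at most 3 counts in every library were taken as at the floor. Exon sequence was read from GRCh37. The 10 members and TARDBP were always named; of the other lists, up to 2 called rises and 2 called falls with the largest change were named per comparison, and for ZC3H13, KIAA1429 and METTL3 the 3 genes of highest Pearson r. Alternatives were DESeq2 1.42.0 (Wald test; size factors), total count scaling, no filter, a mean of at least 50 counts, limma 3.58.1 on log2(FPKM + 1), a replicate block, halved counts, a GC trend removed by lowess (span 0.3), all 17 libraries in 1 fit, and leaving out each library. Tests were tried on simulated data with 200 changed genes, with and without a GC trend. For the input comparison with no trend, 4.39% of calls fell on genes other than the 200. With no trend this share was 10.8% for WT IP over input and 7.14% for siTDP43 IP over input. It was 7.5% for the change of IP over input. These calls used the adjusted p alone. Only the input comparison was also simulated with a trend, of 0.5 on the log2 scale per 10 percentage points of GC. The share was then 97.6%, and 2.97% once the trend was removed. The input data had a slope of -0.51 on that scale, and the input p-values printed are from the fit without GC removal. Enrichment has no absolute level, as the spike-in was not used here.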

Additional observations from a re-analysis of the deposited data

Results flagged for a closer look

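For 7 members, the difference of IgG over input in siTDP43 cells differed from that in WT cells by the interaction term of the edgeR fit over 17 libraries. The log2 changes, siTDP43 against WT, were -4.17 for METTL14, -1.96 for KIAA1429, -3.35 for FTO, 0.94 for ALKBH5, 2.65 for YTHDF1, -1.36 for YTHDF2 and 0.88 for YTHDF3. Of all 15165 genes tested 64.4% passed in 1 direction or the other, so an interaction call was the usual outcome here. ZC3H13 and the changes that use the WT IP libraries are left out, since their values were known when the list was chosen.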

How the results depend on the processing

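For the 12 counts of members called or past the ac4C(+) rule, 111 of 117 values under other settings and 123 of 125 with 1 library left out were within 1.5 times the count reported. The exceptions were, with the GC trend removed, 7 members called for WT IgG over input, 9 for siTDP43 IgG over input, 5 for the change of IP over IgG and 1 for the WT ac4C(+) rule (ZC3H13, as YTHDF1 fell to 0.97 over IgG), and for siTDP43 IP over IgG 1 with limma and 1 with all 17 libraries in 1 fit. Leaving out 1 library gave 1 to 4 members for siTDP43 IP over IgG, with 1 without siTDP43 IP replicate 1 or siTDP43 IgG replicate 3. The cause was not tested.

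Signs turned mainly for values that were not called. With the GC trend removed they were 0.31 for METTL14 in WT IP over input, -0.85 for ALKBH5 in WT IP over IgG, 0.38 for YTHDF1 in WT IgG over input, 0.22 for KIAA1429 in siTDP43 IP over input, -0.79 for WTAP and -0.12 for ZC3H13 in siTDP43 IP over IgG, and -0.10 for KIAA1429 (called, at 0.88) and 0.071 for ALKBH5 in the change of IP over IgG. With total count scaling and with limma, siTDP43 IgG over input turned to -0.27 and -0.26 for KIAA1429, -0.080 and -0.056 for ZC3H13, -0.45 and -0.44 for YTHDF2 and -0.36 and -0.34 for YTHDF3, and the WTAP change of IgG over input to -0.097 and -0.098. With all 17 libraries in 1 fit siTDP43 IgG over input was -0.13 for YTHDF2 and -0.037 for YTHDF3. WTAP in siTDP43 IP over IgG was -0.019 with a mean of at least 50 counts. The METTL3 change of IP over IgG was -1.94 with DESeq2 and -1.52 with limma. With 1 library left out, the range was -0.055 to 0.13 for ALKBH5 and -0.024 to 0.23 for YTHDF3 in WT IP over IgG, -0.44 to 0.060 for YTHDF1 in WT IgG over input, -0.060 to 0.11 for WTAP in siTDP43 IP over IgG and -3.22 to 2.79 for the METTL3 change of IP over IgG. Without a WT IgG library the 1 left was assumed to vary like the others.

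Residuals of same-numbered libraries of different groups correlated weakly, at -0.043 to 0.10 (median 0.012, against -0.0085 for different numbers). These values cannot show whether libraries of the same number came from the same RNA. With the number as a replicate block, the members called were 10 in input, 3, 6 and 4 in the WT comparisons, 6, 2 and 5 in the siTDP43 comparisons and 9, 8 and 8 for the changes. ALKBH5 in WT IP over IgG turned to -0.0082, and the METTL3 call in siTDP43 IP over IgG was lost (edgeR adjusted p = 0.0572; 0.0571 to 0.121 in the other edgeR fits that lost it). No other call of a member changed with the block. METTL3 had at most 4 counts in every IgG library, and METTL14 and FTO had 4 to 28 in siTDP43 IgG, so their values there are imprecise.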
